A study of Homo sapiens with 8 samples.

Results

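BRG1 occupancy was compared between SETD3 knockout and control HCT-116 cells, an established line from a human colorectal carcinoma. The members were the BRG1 peaks on chromosomes 1 to 22 and X that overlapped no peak of either IgG library by 1 bp or more, IgG being the antibody without a chromatin target that serves as a background control. They numbered 6789 in SETD3 KO1, 12782 in SETD3 KO2 and 33596 in control cells, which is 53167 of the 111678 peaks deposited for these 3 libraries and of the 263613 peaks in the 8 libraries of the series. There were 2 libraries of SETD3 knockout cells and 1 of control cells, all grown in the same serum-containing medium with no further treatment stated. How SETD3 was disrupted, and whether the 2 knockouts were independent clones, is not stated in the labels, and each library stood alone without a repeat. With 1 control library, both knockout comparisons share that control, no test of the genotype was possible, and every value below is a description.

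BRG1, encoded by SMARCA4, is an ATPase of the SWI/SNF (BAF) complexes, which slide and evict nucleosomes at promoters and enhancers. SETD3 methylates a histidine of actin, and actin and an actin-related protein are themselves subunits of SWI/SNF complexes. In CUT&RUN a nuclease is brought to the protein of interest by an antibody and cuts out the DNA nearby for sequencing, so a peak marks a stretch where many fragments of one library lay.

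Promoter sequences are shown first because promoters that held a BRG1 peak in both knockout and control cells more often contained a CCAAT box, the element bound by NF-Y, than promoters with a peak in control cells alone (values given later). Each sequence is the RefSeq promoter window of GRCh38.p14, from 250 bases before to 50 bases after the gene start, read 5′ to 3′ on the gene's strand, and capitals mark the letters CCAAT or their reverse complement ATTGG. RNF43 (chr17:58417485-58417784, minus strand) and ODAD1 (chr19:48321922-48322221, minus strand) had a peak in control cells and none in KO1 or KO2. AP2A1 (chr19:49766751-49767050, plus strand) and WIPI1 (chr17:68457447-68457746, minus strand) had a peak in all 3 libraries and were chosen after their values were seen, at rank percentiles (of total signal in the list) of 95.5 and 96.3 in KO1, 96.7 and 92.3 in KO2, and 95.5 and 93.3 in control cells. DCAF7 (chr17:63550227-63550526, plus strand) had a peak in both knockouts and none in control cells.
RNF43: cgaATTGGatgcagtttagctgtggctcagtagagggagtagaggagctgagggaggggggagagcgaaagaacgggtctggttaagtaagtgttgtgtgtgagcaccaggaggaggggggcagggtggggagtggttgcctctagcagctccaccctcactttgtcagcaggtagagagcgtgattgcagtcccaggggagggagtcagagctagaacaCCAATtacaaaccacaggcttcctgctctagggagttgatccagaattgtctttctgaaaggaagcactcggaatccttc
ODAD1: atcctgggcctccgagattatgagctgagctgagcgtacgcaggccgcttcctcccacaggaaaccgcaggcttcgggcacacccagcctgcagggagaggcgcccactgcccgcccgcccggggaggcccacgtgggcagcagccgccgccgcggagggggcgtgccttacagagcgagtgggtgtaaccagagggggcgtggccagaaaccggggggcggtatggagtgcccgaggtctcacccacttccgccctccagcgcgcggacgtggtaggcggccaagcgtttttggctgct
AP2A1: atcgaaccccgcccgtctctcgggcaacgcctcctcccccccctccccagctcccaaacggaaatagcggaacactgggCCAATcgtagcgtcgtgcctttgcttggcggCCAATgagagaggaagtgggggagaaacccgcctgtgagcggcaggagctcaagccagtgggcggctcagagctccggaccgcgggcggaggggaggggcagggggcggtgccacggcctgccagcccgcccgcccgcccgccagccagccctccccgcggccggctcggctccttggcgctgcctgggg
WIPI1: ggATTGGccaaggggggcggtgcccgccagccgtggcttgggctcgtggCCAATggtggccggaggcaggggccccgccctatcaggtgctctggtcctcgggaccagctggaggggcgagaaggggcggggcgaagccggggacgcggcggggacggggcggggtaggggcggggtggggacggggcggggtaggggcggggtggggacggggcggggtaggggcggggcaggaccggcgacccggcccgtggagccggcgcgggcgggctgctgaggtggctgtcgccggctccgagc
DCAF7: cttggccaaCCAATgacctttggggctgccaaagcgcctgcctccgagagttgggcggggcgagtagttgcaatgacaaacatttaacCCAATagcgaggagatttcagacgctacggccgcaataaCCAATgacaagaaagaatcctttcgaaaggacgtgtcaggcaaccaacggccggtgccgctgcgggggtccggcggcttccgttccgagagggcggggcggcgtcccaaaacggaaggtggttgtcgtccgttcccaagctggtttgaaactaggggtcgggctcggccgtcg
RNF43, AP2A1 and WIPI1 each held 2 of these elements, DCAF7 held 3 and ODAD1 held none. CCAAT boxes were not found in every promoter shared by all 3 libraries: the windows of DOP1B and BCL10 held none. DOP1B ranked above AP2A1 and WIPI1 in every library, at 98.4 in KO1, 99.1 in KO2 and 99.98 in control cells.

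A larger share of the knockout lists than of the control list overlapped IgG background, though not a larger number of peaks. As deposited, the lists held 24418 peaks in KO1, 32841 in KO2 and 54419 in control cells. Of those on chromosomes 1 to 22 and X, 16862 (71.3%) in KO1, 19089 (59.9%) in KO2 and 19489 (36.7%) in control cells overlapped an IgG peak and were dropped. The files hold no read totals, so the depth is unknown. In each list the maximum signals were multiples of 1 smallest step, which was 11.5 in KO1, 9.09 in KO2 and 4.38 in control cells, and the median peak was 8, 10 and 12 steps high in KO1, KO2 and control cells. The step, the share of IgG background and the number of peaks therefore all moved with the genotype labels. Less BRG1 on chromatin and fewer usable fragments in a library cannot be told apart in these lists.

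BRG1 peaks were narrower in the knockout libraries. The median width was 90 bp in KO1 and 110 bp in KO2, against 210 bp in control cells, so the knockout mean of 100 ± 14.1 bp (SD, n = 2) differed from control by -110 bp. Peaks covered 0.794 Mb in KO1, 1.68 Mb in KO2 and 8.06 Mb in control cells. Peaks of 50 bp or less made up 15.97% of the KO1 list and 15.4% of the KO2 list, against 3.67% of the control list. Such narrow peaks are also what the IgG lists hold, where the median width was 40 bp in the library of the BRG1 arm and 50 bp in that of the Flag arm. When each list was cut to its 6789 peaks of highest total signal, the medians were 90 bp in KO1, 140 bp in KO2 and 380 bp in control cells. Total signal is summed over the peak, so this cut favours wide peaks, and it left the KO1 list whole. The knockout mean minus control was then -265 bp, but -80 bp with the lists cut by maximum signal and -40 bp with the peaks that overlap IgG kept.

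**Figure D1:**
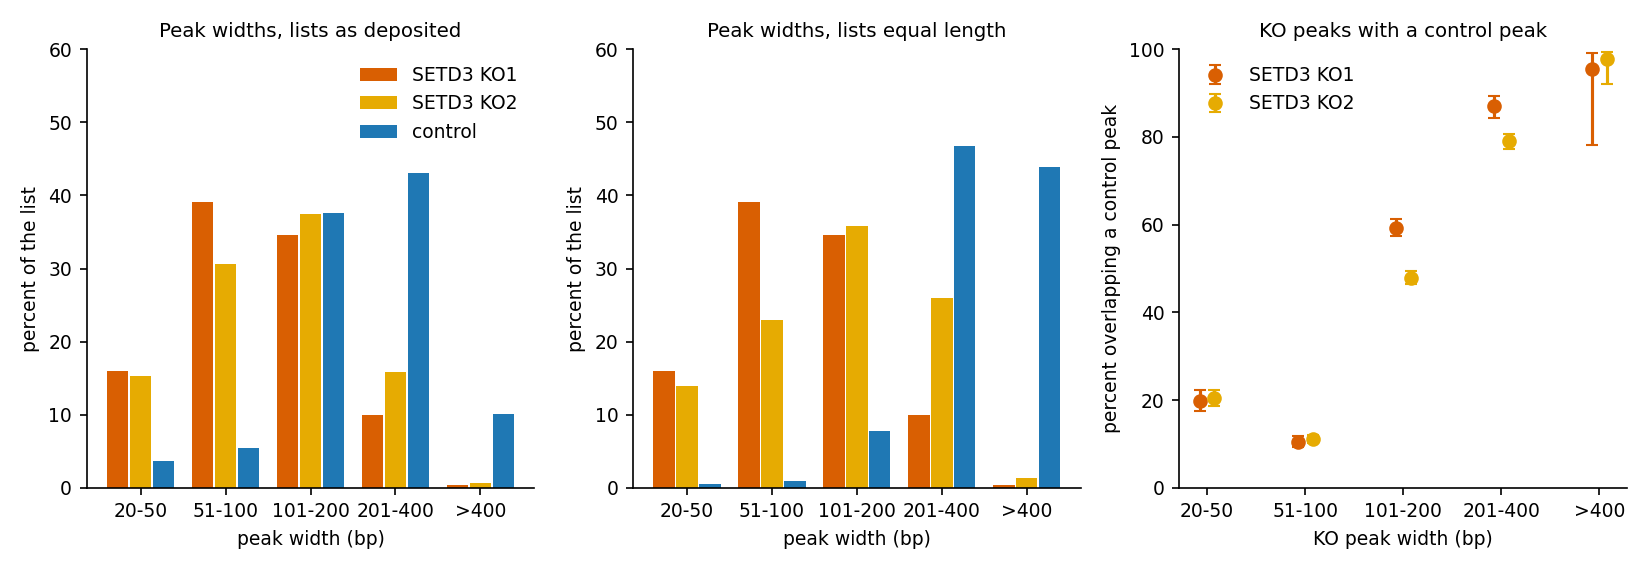
Left and middle, the percent of each BRG1 list (y axis) in 5 classes of peak width in bp (x axis) for SETD3 KO1, SETD3 KO2 and control, with lists as deposited and cut to equal length. Right, the percent of KO1 and KO2 peaks of each width that overlapped a control peak, with 95% Wilson intervals as bars, which is lowest for peaks of 51 to 100 bp (10.5% and 11.1%) and highest above 400 bp (95.5% and 97.8%).

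Most BRG1 peaks of control cells had no counterpart in the knockout lists. Of the 33596 control peaks, 31192 (92.8%) overlapped no KO1 peak and 29014 (86.4%) overlapped no KO2 peak, a knockout mean of 89.6% ± 4.58 (SD, n = 2). With all lists cut to 6789 peaks the shares were 77.1% for KO1 and 70.6% for KO2. The share was therefore smaller when the longer control list was shortened. At that length the knockout lists overlapped each other no more than control, since 79.6% of KO1 peaks had no KO2 peak and 79.7% of KO2 peaks had no KO1 peak. Keeping the peaks that overlap IgG gave a mean of 63.9% as deposited and 37.8% at equal length, so this value depends on how background sites are treated.

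The share of control peaks with a knockout counterpart rose with their total signal, which is summed over the peak and moved with its width. Rank is given as the percentile of a peak's total signal within its own list, and since the lists differ in length a rank shows a peak's place in its list and no change between lists. Among control peaks in the lower 50% of the list, 2.06% overlapped a KO1 peak and 4.76% a KO2 peak. Between the 95th and 99th percentile the shares were 38.4% in KO1 and 60.2% in KO2, and above the 99th they were 68.8% and 85.8%. The median control rank of peaks with a counterpart was 88.8 for KO1 and 84.1 for KO2, against 47.3 and 45.4 for control peaks without one. The strongest BRG1 sites of control cells were thus also the ones most often listed in cells without SETD3, in both libraries.

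The knockout lists also held peaks that the control list lacked. Of KO1 peaks, 4292 (63.2%) overlapped no control peak, and of KO2 peaks 7965 (62.3%). At equal length the shares were 75.5% in KO1 and 68.3% in KO2. Their median width was 90 bp in both knockouts, against 160 bp in KO1 and 180 bp in KO2 for peaks with a control counterpart, and their median rank was 39.1 in KO1 and 40.6 in KO2, against 70.5 and 69.4. Of KO peaks in the top 1% of their list by total signal, 92.8% in KO1 and 94.5% in KO2 overlapped a control peak, against 24.5% and 24.98% in the lower 50%. The knockouts also differed from each other, since as deposited 26.6% of KO1 peaks overlapped a KO2 peak and 14.2% of KO2 peaks overlapped a KO1 peak.

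At most sites where both had a peak, the knockout peak was shorter than the control peak and lay within it. Shared sites numbered 2404 control peaks for KO1 and 4582 for KO2. The median width there was 160 bp in KO1 against 320 bp in control cells, and 180 bp in KO2 against 300 bp in control cells. The knockout peak was the narrower one at 85.7% of KO1 sites and 81.2% of KO2 sites, and 79.9% of matched KO1 peaks and 70.8% of matched KO2 peaks lay wholly inside a control peak. The regions of maximum signal were a median of 45 bp apart in both comparisons. Sites were picked by overlap, and knockout peaks were narrower over the whole lists as well. Narrower, nested peaks with nearby maxima are therefore partly set by that choice. Across these sites, which share their libraries and depth, the rank of total signal had a Spearman rho with control of 0.298 in KO1 (2404 sites) and 0.326 in KO2 (4582 sites).

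Joining overlapping peaks of the 3 lists gave 45259 regions. Of these, 1306 (2.89%) were held by all 3 lists, 498 (1.10%) by both knockouts without control, 3785 (8.36%) by KO1 alone, 7464 (16.5%) by KO2 alone and 27915 (61.7%) by control alone. The 1082 regions of KO1 and control and the 3209 of KO2 and control made up the rest. Regions of all 3 lists were the widest, with a median of 410 bp, against 200 bp for control alone. Regions of both knockouts without control had a median of 30 bp. A joined region is at least as wide as its widest peak, so these widths depend on which lists were joined. Only 79 of the 452 regions held by both knockouts with no control peak within 1 kb were wider than 100 bp.

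**Figure D2:**
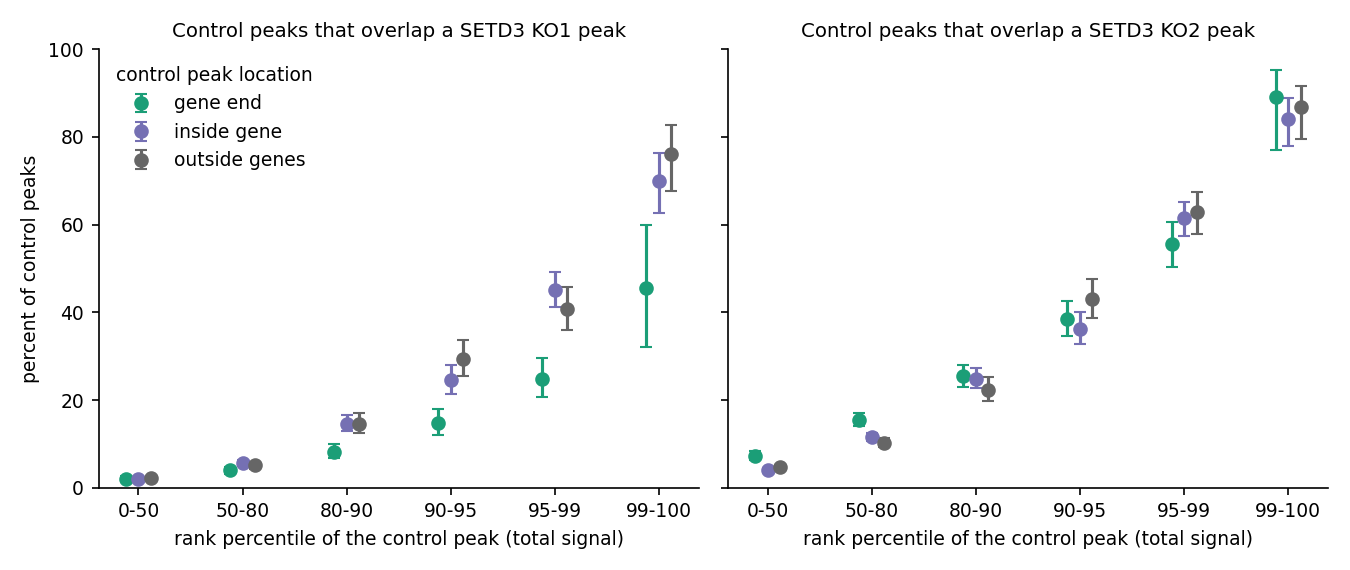
Percent of control BRG1 peaks that overlapped a SETD3 KO1 peak (left) or a SETD3 KO2 peak (right), by the rank percentile of the control peak (x axis) and by its location, with 95% Wilson intervals as bars. The share is higher in stronger bands, and in KO1 the gene-end peaks of the top bands lie below the others.

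BRG1 peaks lay at gene ends less often in the knockout lists than in the control list. A gene end is either annotated end of a protein-coding gene with 1 kb on each side, and starts are included. In KO1, 782 peaks (11.5%, 95% Wilson interval 10.8 to 12.3) lay there, in KO2 2326 (18.2%, 17.5 to 18.9) and in control cells 6922 (20.6%, 20.2 to 21.0). The knockout mean of 14.9% ± 4.72 (SD, n = 2) differed from control by -5.75 percentage points. The intervals cover counting error only, and the gap between KO1 and KO2 was larger than that between KO2 and control. Peaks inside genes but away from their ends made up 47.8% in KO1, 44.5% in KO2 and 44.8% in control cells, and peaks outside genes 40.7%, 37.3% and 34.6%.

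At equal length the gene-end shares were 11.5% in KO1, 20.4% in KO2 and 30.1% in control cells. The cut kept the whole KO1 list but only the strongest control peaks, and the control share varied with strength. It was 15.1% in the lower 50% of control peaks, 31.9% between the 80th and 90th percentile and 13.6% above the 99th. The median distance to a gene end was 29.0 kb in KO1, 20.7 kb in KO2 and 16.8 kb in control cells as deposited, and 29.0, 19.4 and 12.2 kb at equal length. Among peaks outside genes it was 57.8 kb in KO1, 47.3 kb in KO2 and 39.4 kb in control cells. Peaks that overlapped a gene end made up 2.83% of KO1, 5.21% of KO2 and 8.05% of control. Peaks over 100 kb from any gene end made up 24.0%, 19.3% and 17.2%. Where the promoter table gives a start, which leaves out chromosome 8, peaks near a start but no far end made up 8.76% of KO1, 14.4% of KO2 and 15.96% of control, and peaks near a far end alone 1.29%, 1.62% and 1.85%. The order KO1, KO2, control held in each of these measures.

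The gene-end difference did not hold among wide peaks. With peaks wider than 100 bp only, the difference from control was -4.29 percentage points in KO1 and 4.99 points in KO2, and that of the knockout mean was 0.35. Cut to equal length, these wide peaks gave a mean difference of -4.78, and lists cut by maximum signal gave -2.90. Among wide peaks, then, KO1 lay below control and KO2 above it.

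**Figure D3:**
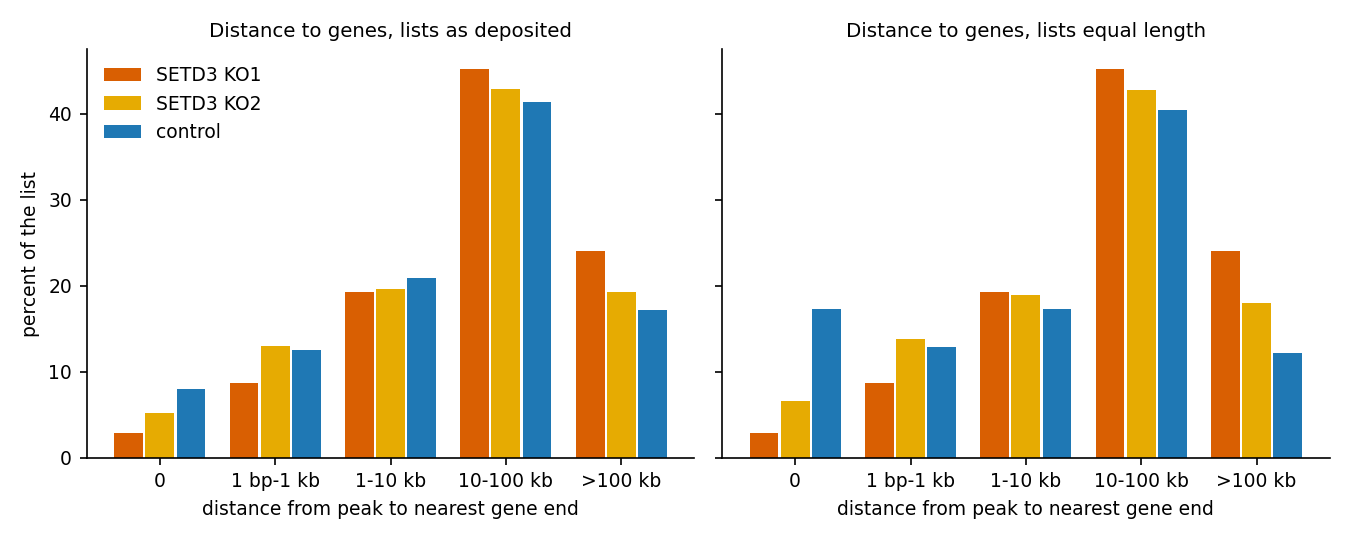
Percent of each BRG1 list (y axis) by distance from the peak to the nearest protein-coding gene end (x axis, 0 meaning overlap) for SETD3 KO1, SETD3 KO2 and control, as deposited and at equal length. At equal length 2.83% of KO1, 6.57% of KO2 and 17.3% of control peaks overlapped a gene end.

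Among strong control peaks of the lists as deposited, gene-end sites overlapped a KO1 peak less often than other sites did. Between the 95th and 99th percentile, 24.9% of 362 gene-end peaks, 45.2% of 591 peaks inside genes and 40.8% of 385 peaks outside genes overlapped a KO1 peak. For KO2 the corresponding shares were 55.5%, 61.4% and 62.9%. Above the 99th percentile they were 45.7%, 70.0% and 76.0% for KO1, over 46, 170 and 121 peaks, and 89.1%, 84.1% and 86.8% for KO2. At equal length, 15 of 39 gene-end peaks between the 95th and 99th percentile overlapped a KO1 peak and 34 of 39 a KO2 peak, but above the 99th the counts were the same, 6 of 7 for each knockout.

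The strongest control sites with no knockout peak within 1 kb lay in and between genes of varied function. At gene ends the highest ranks belonged to GPRC5A, an orphan receptor induced by retinoic acid (chr12:12890811-12891570), and RNF43, an E3 ligase that removes Wnt receptors from the cell surface (chr17:58417501-58418000), both at rank 99.04 with a total signal of 25290. ODAD1, an axonemal dynein docking factor (chr19:48321591-48322210), CLU, which encodes the chaperone clusterin, and DUSP6, an ERK phosphatase (chr12:89353251-89354250, rank 98.5), followed. Inside genes the strongest such peak was in TNIK, a kinase of the Wnt pathway (chr3:171354171-171355340, rank 99.9), and others lay in INPP4B, a phosphoinositide phosphatase, FKBP5, a co-chaperone of steroid receptors, FRMD8 and SLC25A45, and RASSF3. Outside genes, peaks near CBX8, a Polycomb subunit (3.42 kb away), VXN (3.53 kb), LOC124909439 (5.29 kb) and SPATA31A6 (241 kb) were among the strongest. All of these control peaks were at least 500 bp wide.

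The strongest sites of all 3 lists included the Wnt effector TCF7L2 and the MYC gene. The TCF7L2 site (chr10:113087141-113087880), inside the gene, had the highest total signal of the KO2 and control lists, and its rank in KO1 was 99.99. Its peak was 320 bp wide in KO1, 550 bp in KO2 and 740 bp in control cells. The site 10 bp from the higher-coordinate end of MYC (chr8:127742961-127743550) ranked 96.2 in KO1, 99.8 in KO2 and 99.3 in control cells. DOP1B (chr21:36156201-36156800) ranked 98.4, 99.1 and 99.98 in KO1, KO2 and control cells, and COTL1, which encodes an actin-binding protein, 99.3, 97.2 and 97.4. The other gene-end sites lay at RELL1 and at NCF1, a subunit of the phagocyte NADPH oxidase whose near-identical gene copies make read placement uncertain.

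Inside genes the remaining sites lay in SLC38A8, ABCC3, an export pump, IGF1R, the receptor of insulin-like growth factor, and RTN4, a protein of the endoplasmic reticulum. Outside genes they lay near PLAU, the urokinase gene (1.49 kb), SCG2 (47.2 kb), TES (95.9 kb), TRIB1, a pseudokinase gene (226 kb), and RIPK2 (657 kb). At all 15 named sites, peaks were 190 bp wide or more in each knockout and 380 bp or more in control cells.

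Few strong sites were shared by both knockouts and lacked a control peak. At DCAF7, a WD40 scaffold protein, the peak ranked 92.6 in KO1 and 96.7 in KO2. PSAP, the precursor of the saposins, ranked 72.8 in KO1 and 87.6 in KO2, and the TAF11L14 site was 40 bp wide in both. Inside genes they lay in ATP7B, a copper transporter (96.0 and 96.8), RBM20, a splicing factor (97.3 and 95.8), and SLC23A1, a vitamin C transporter (94.1 and 97.2). Outside genes they lay 3.77 kb from ZNF34, 292 kb from MDGA2 and 987 kb from COXFA4. The peaks with MDGA2 and COXFA4 as nearest gene spanned only 30 bp and 20 bp.

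Counted by gene, 858 of 19974 protein-coding genes had a gene-end peak in KO1 (4.3%), 2463 in KO2 (12.3%) and 6219 in control cells (31.1%). At equal length the counts were 858 (4.3%), 1529 (7.65%) and 2241 (11.2%). Genes with a gene-end peak in control cells and none in KO1 numbered 5603 (28.1%), and none in KO2 4467 (22.4%), while 4170 (20.9%) had one in control cells and in neither knockout. In all 3 lists there were 319 genes (1.6%), and 51 (0.255%) in both knockouts without control. Of the 6219 control genes, 9.91% had a gene-end peak in KO1 and 28.2% in KO2, and the shares for gene lists below are read against these values. A gene's peaks in different lists need not overlap. Genes with a gene-end peak in KO1 and none in control cells numbered 242 (1.21%), and in KO2 and none in control cells 711 (3.56%). At equal length, 1869 genes (9.36%) had a control peak and none in KO1, 1535 (7.68%) a control peak and none in KO2, and 1337 (6.69%) a control peak and none in either. At that length the reverse held for 486 genes in KO1 (2.43%) and 823 in KO2 (4.12%), with 81 genes (0.406%) in both knockouts alone and 174 (0.871%) in all 3 lists.

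In the immediate early, actin, Wnt and p53 lists, over 50% of control genes also had a KO2 peak, against 28.2% of all control genes. Control peaks of these lists had a higher median rank than those of all control genes. Of 27 AP-1 and immediate early genes, 5 had a gene-end peak in KO1, 14 in KO2 and 23 in control cells, so 21.7% and 56.5% of the control genes also had one in KO1 and KO2, and at equal length the counts were 5, 8 and 16. EGR1, an immediate early transcription factor, ranked 30.7 in KO1, 37.9 in KO2 and 97.2 in control cells, and DUSP1, a MAP kinase phosphatase, ranked 39.1, 74.7 and 94.5. SPRY4, an inhibitor of receptor tyrosine kinase signalling, ranked 78.5 in KO1, 92.9 in KO2 and 87.5 in control cells, and its KO1 peak did not overlap the control peak. FOS and JUN, the partners of AP-1, had a control peak of rank 94.0 and 92.4 and none in either knockout. The median control rank was 85.9 in this list, 80.7 in the actin list, 93.7 in the Wnt list and 85.0 in the p53 list, against 70.5 over all control genes, and its part in these shares was not tested.

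Of 50 genes of the actin cytoskeleton and of serum response factor, 5 had a gene-end peak in KO1, 19 in KO2 and 31 in control cells, which is 16.1% and 51.6% of the control genes. At equal length they were 5, 15 and 18. MYH9, the non-muscle myosin heavy chain, ranked 96.2 in KO1, 73.3 in KO2 and 99.7 in control cells, and CORO1C, a coronin that binds actin filaments, ranked 90.2, 89.9 and 99.2. VCL, which encodes vinculin at focal adhesions, ranked 50.5, 98.96 and 97.9, and its KO1 peak did not overlap the control peak. FSCN1, an actin-bundling protein, and ACTN1, an actin crosslinker, had control peaks of rank 89.7 and 86.3 and none in the knockouts. Among 42 integrin and focal adhesion genes the counts were 7 in KO1, 8 in KO2 and 23 in control cells. With a median control rank of 86.3, 17.4% of these control genes had a KO1 peak and 21.7% a KO2 peak. Over all control genes the shares were 9.91% in KO1 and 28.2% in KO2. CAV1, the caveolin gene, ranked 96.8, 87.2 and 90.5 in KO1, KO2 and control cells, whereas ITGB1, the common integrin beta chain, ranked 98.0 in control cells and had no knockout peak.

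Of 25 Wnt genes, 2 had a gene-end peak in KO1, 7 in KO2 and 11 in control cells, and of 26 p53 targets 6, 11 and 16. Of the Wnt control genes, 18.2% in KO1 and 63.6% in KO2 also had a peak, and of the p53 control genes 31.3% and 62.5%. These KO2 shares rest on only 7 and 10 genes, and MYC is in both the immediate early and Wnt lists. At equal length the counts in KO1, KO2 and control cells were 2, 4 and 7 for Wnt and 6, 8 and 10 for p53. AXIN2, a negative feedback gene of Wnt signalling, ranked 39.1 in KO1, 23.6 in KO2 and 73.1 in control cells, where neither knockout peak overlapped the control peak. SOX9, an intestinal stem cell factor, had a control peak of rank 93.7 alone. RRM2B, a p53-induced ribonucleotide reductase subunit, ranked 72.8, 99.6 and 99.7 in KO1, KO2 and control cells, and PLK3, a stress kinase, ranked 42.5, 75.5 and 99.2. At PLK3 the peaks of the 3 lists did not overlap one another, so these ranks belong to different sites. PLK2 and CCNG1, both p53 targets, ranked 93.4 and 91.5 in control cells and had no knockout peak.

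Genes for ribosomal proteins had gene-end peaks in the knockouts at shares on both sides of those of all genes, which were 4.3% in KO1 and 12.3% in KO2. The share of all genes in control cells was 31.1%. Among the 79 genes for cytosolic ribosomal proteins, 2 (2.53%) had a gene-end peak in KO1, 13 (16.5%) in KO2 and 41 (51.9%) in control cells, so 2.44% and 24.4% of the control genes also had one. At equal length the counts were 2, 10 and 13, so the gap between KO2 and control was then 3 genes. Of 77 mitochondrial ribosomal protein genes the counts were 3 (3.90%), 7 (9.09%) and 39 (50.6%), or 5.13% and 10.3% of the control genes. Of 48 translation factors they were 3 (6.25%), 14 (29.2%) and 23 (47.9%), and of 22 aminoacyl-tRNA synthetase genes 0, 4 (18.2%) and 10 (45.5%). RPS6, a small subunit protein, ranked 90.6 in control cells, EEF1G, a subunit of the elongation factor complex, 94.9 and HARS1, the histidyl-tRNA synthetase, 92.6, and none of the 3 had a knockout peak. The median control ranks of the 2 ribosomal lists, 65.8 and 60.7, lay below that of all control genes.

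The KO2 shares of the YAP and TEAD, extracellular matrix and SWI/SNF lists rest on 2, 1 and 5 genes, too few to set them apart from the 12.3% of all genes. Of 25 YAP and TEAD genes and targets, 0 had a gene-end peak in KO1, 2 (8%) in KO2 and 15 in control cells, and at equal length 0, 1 and 6. Of 40 extracellular matrix genes the counts were 2, 1 (2.5%) and 15. Of 29 SWI/SNF subunit genes, 2 (6.90%) had a peak in KO1, 5 (17.2%) in KO2 and 13 in control cells. Of the SWI/SNF control genes, 0% and 30.8% also had one in KO1 and KO2, against 9.91% and 28.2% of all control genes. SMARCC1, a core scaffold subunit, ranked 91.7 in control cells alone. Of 35 epithelial junction genes the counts were 3, 7 and 22. PERP, a desmosome protein, ranked 91.0 in KO1, 90.8 in KO2 and 95.3 in control cells, and its KO2 peak did not overlap the control peak. NECTIN3, an adhesion molecule, ranked 94.3 in control cells alone.

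Of 37 cell cycle genes, 3 (8.11%) had a gene-end peak in KO1, 6 (16.2%) in KO2 and 19 (51.4%) in control cells. Among all genes the shares were 4.3% in KO1, 12.3% in KO2 and 31.1% in control cells. E2F3, a transcription factor of S phase entry, ranked 7.53 in KO1, 99.9 in KO2 and 99.4 in control cells, but these were not all 1 site. The KO1 peak (chr6:20494301-20494390) lay apart from the control peak (chr6:20401261-20401940), which the KO2 peak overlapped. CDC6, a replication licensing factor, ranked 94.5 in control cells alone. Of 51 replication-dependent histone genes the counts were 1 (1.96%), 8 (15.7%) and 15 (29.4%), and the leading control peak, at rank 98.0, was shared by the neighbours H2AC12 and H2BC12. Peaks are not expression, but marker genes were counted: of 21 epithelial and intestinal genes 1 had a peak in KO1, 4 in KO2 and 9 in control cells. Of 25 fibroblast and immune genes the counts were 0, 3 (12%) and 1 (4%), and of 29 neuron and liver genes 1 (3.45%), 2 (6.90%) and 2 (6.90%).

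**Figure D4:**
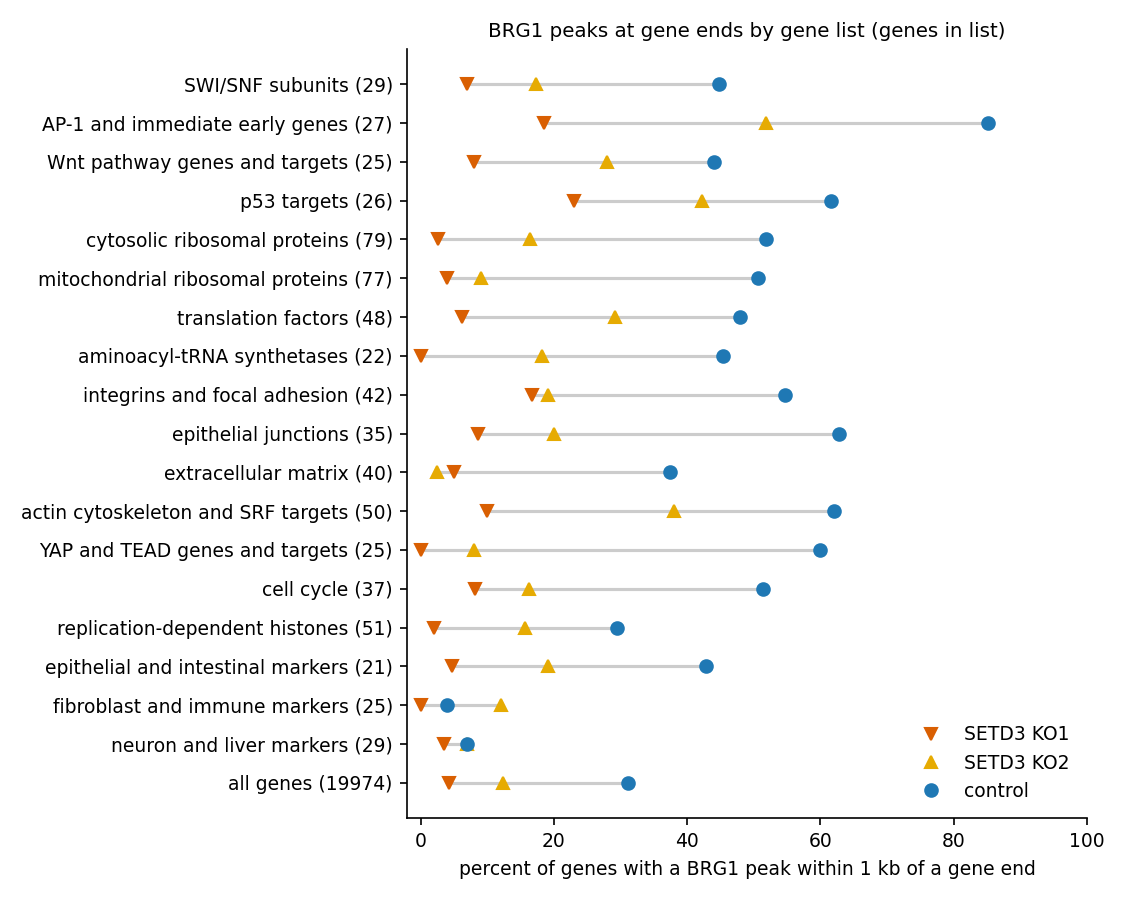
Percent of the genes of each list with a BRG1 peak within 1 kb of a gene end (x axis) in SETD3 KO1, SETD3 KO2 and control, with the number of genes in parentheses. The control point lies to the right of both knockout points in every list but the fibroblast and immune markers and the neuron and liver markers.

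Promoters that held a BRG1 peak in knockout as well as control cells contained a CCAAT box more often than those with a control peak alone. CCAAT was 1 of 9 motifs searched. The search took its letters on both strands in the 300-base windows of 15812 genes, of which 36.3% held a match. Chromosome 8 genes have no window in the table and are not in these counts, and neighbouring genes can share a window. Among promoters with a control peak, 184 of 283 that also had a KO1 peak held a match (65.0%, 95% Wilson interval 59.3 to 70.3), against 43.9% of 3292 without a KO1 peak. For KO2 the shares were 57.0% of 872 (53.7 to 60.2) and 41.9% of 2703. Of promoters with a peak in all 3 lists 70.2% of 124 held a match, against 40.7% of 2544 with a peak in control cells and in neither knockout.

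Strength moved with this split as well, since the median control rank was 87.0 for promoters shared with KO1 and 72.7 for the rest, and 85.1 and 70.1 for KO2. Within each of 5 bands of control rank the shared promoters had the higher share, for both knockouts. In the top band, from the 95th percentile, the gap was small, at 66.7% against 59.1% for KO1 and 61.2% against 60.1% for KO2. At equal length the shares were 65.9% against 49.6% for KO1 and 61.4% against 48.2% for KO2. Promoters with a knockout peak and no control peak held a match in 40.3% of 119 cases for KO1 and 46.9% of 399 for KO2. Promoters with a peak in either IgG list held one in 38.5% of 109, but the IgG lists differed. The share was 45.7% of 81 for the BRG1 arm (95% Wilson interval 35.3 to 56.5) and 29.6% of 81 for the Flag arm (20.8 to 40.3). Both intervals take in the 36.3% of all promoters. The share for the BRG1 arm was close to the 45.6% of promoters with a control BRG1 peak. The median GC content of the shared and unshared groups lay between 65.3% and 66.0%.

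**Figure D5:**
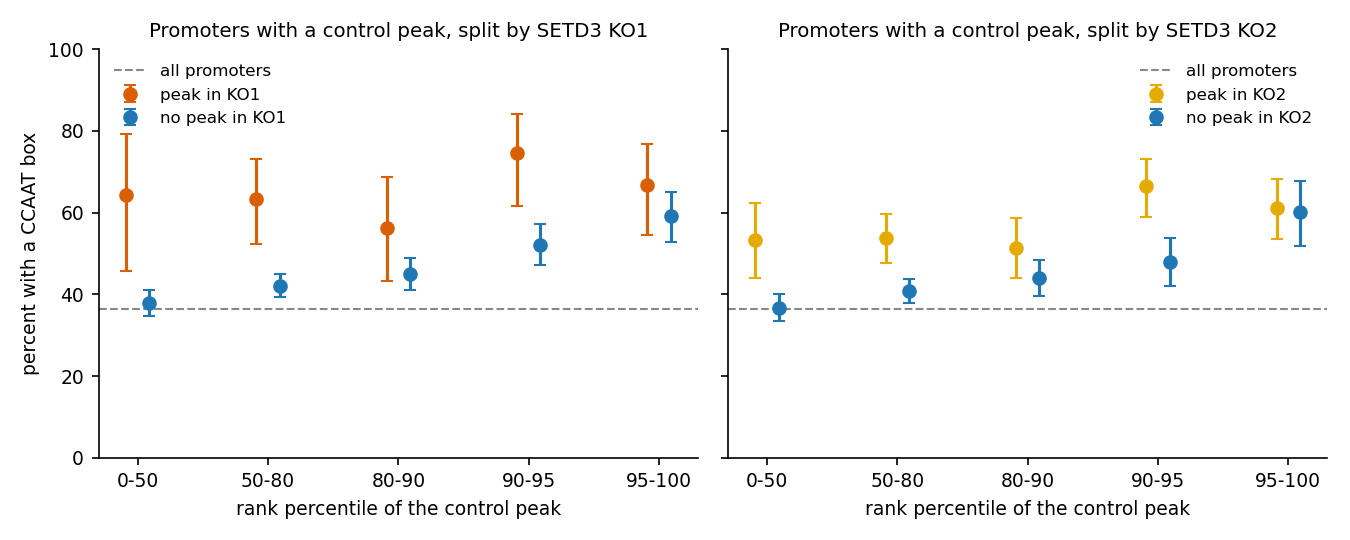
Percent of promoters with a control BRG1 peak that held a CCAAT box (y axis), by rank percentile of the control peak (x axis), split by whether they also had a SETD3 KO1 peak (left) or a SETD3 KO2 peak (right), with 95% Wilson intervals as bars and all promoters (36.3%) as a dashed line. Promoters with a knockout peak lie above those without in all 5 bands, by least in the top band.

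Clusters of BRG1 peaks seen in control cells also held knockout peaks. Control peaks within 12.5 kb of each other were joined into clusters. In the 124 clusters of 10 to 19 control peaks there were 15.9 KO1 peaks and 30.0 KO2 peaks per 100 control peaks, and in the 20 clusters of 20 to 46 there were 14.7 and 32.8. At the 15481 isolated control peaks the values were 4.99 and 10.3, over a median span of 0.19 kb, whereas the clusters of 10 to 19 peaks had a median span of 33.0 kb that takes in the stretches between their control peaks. The largest clusters, at MRPS23 and CUEDC1 (chr17:57850031-57965680) and at SMAD3, a transducer of TGF-beta signals (chr15:67063181-67150800), held 10 and 6 KO1 peaks, 8 and 14 KO2 peaks, and 46 and 41 control peaks. The intergenic cluster nearest to BLID had 5 peaks in KO1, 22 in KO2 and 30 in control cells, while VTI1A, a SNARE gene, had 5 in each knockout and 27 in control cells. By whole gene, PCDH7, a protocadherin, held 10 peaks in KO1, 25 in KO2 and 102 in control cells, and RAD51B, a DNA repair gene, 12, 8 and 53.

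The targeted gene and the gene of BRG1 itself were also inspected. SETD3 (chr14:99397748-99486458) held 4 peaks in KO1, 5 in KO2 and 3 in control cells, none of which checks the knockout. Peaks at 99406511-99406600, 99413871-99413940 and 99459111-99459190 had the same ends in KO1 and KO2 and no control counterpart, and what gave rise to them was not tested. The first was at rank 98.8 in KO1 and 92.3 in KO2. The control peak near the higher end of the gene, at 99480931-99481520 and rank 98.3, overlapped a KO2 peak of rank 74.1 and no KO1 peak. SMARCA4 held 1 peak in KO1, 1 in KO2 and 2 in control cells, at different positions. AURKB, a mitotic kinase gene (chr17:8204731-8210575), held 8 peaks in KO1, up to rank 99.97, 1 in KO2 and 0 in control cells.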

How the data were processed

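CUT&RUN with an antibody against BRG1 was done in SETD3 KO1, SETD3 KO2 and control HCT-116 cells, with an EpiCypher kit per the labels' protocols. The submitters' processing notes name hg38 as build. They list SEACR, MACS2, bedtools 2.30.0, deepTools, SAMtools, BWA, FastQC 0.12.0 and Trim Galore 0.4.5, without order or settings. The authors deposited 1 peak list per library in the SEACR layout, giving for each peak its summed signal and its maximum. The scaling of the signal is not stated in the sources used here, so it was used to rank peaks within a list. The deposited list names carry the numbers 0.01 (antibody) and 0.005 (IgG), and a numeric threshold of this caller keeps a top fraction of a library, so a number of peaks does not measure binding.

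From these lists, peaks on chromosomes 1 to 22 and X that overlapped no IgG peak were kept, and lists were compared as deposited and cut to 6789 peaks by total signal. Overlap meant 1 bp or more. Maximum signals below 200 steps were whole multiples of the step within 0.05 steps. Genes came from the RefSeq table of GRCh38.p14, the build of hg38, for 19974 protein-coding genes. It gives no strand, so both gene ends were used, and 15812 genes had a promoter window. Analysis used Python 3.11.15, numpy 2.4.6, pandas 2.3.3, scipy 1.17.1 and matplotlib 3.10.9. The overlap code was compared with bedtools 2.31.1 on simulated intervals and differed at 0 of 33596 peaks. Wilson intervals cover counting error only.

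No test was made, with 1 control library. Named sites were, in each location class, the 5 strongest control peaks with no knockout peak within 1 kb, the 5 sites of all 3 lists with the highest lowest rank, and the 3 such sites of both knockouts alone. Within each of 18 gene lists up to 4 genes were eligible, those of highest control rank with no knockout peak or with a peak in all 3 lists, and the 5 genes richest in control peaks. SETD3, SMARCA4, ACTB and AURKB were eligible in addition. Some eligible sites and genes are not reported here. The members and gene lists were chosen with earlier results of these data known. Alternatives were the IgG filter, peaks over 100 bp, joined peaks, overlap rules, the gene-end window, the ranking signal and leaving out each knockout library.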

Additional observations from a re-analysis of the deposited data

How the results depend on the processing

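Of 59 alternative values, 43 stayed within the spread between the knockout libraries or within 1.5 times the main count, 15 moved and 1 reversed. For shares and differences, leaving out 1 of the 2 knockout libraries always moves the mean by less than their SD. Those alternatives could only count as staying, are among the 43, and say nothing about stability. Of 28 alternatives for a difference between knockout mean and control, 27 were negative. The exception was the gene-end difference with peaks wider than 100 bp only, 0.35 percentage points. Without the IgG filter, the share of control peaks without a knockout peak was 63.9% as deposited and 37.8% at equal length, the gene-end difference at equal length was -6.76 points and the width difference at equal length -40 bp. With wide peaks only, the absent share at equal length was 65.4%, the gene-end difference -4.78 points and the width difference -295 bp. As deposited, the width difference of wide peaks was -65 bp. With lists cut by maximum signal, the absent share, gene-end difference and width difference were 78.7%, -2.90 points and -80 bp at equal length. At equal length, the absent share was 87.3% when knockout peaks had to cover 50% of the control peak and 69.2% when a knockout peak within 500 bp counted, and joining peaks within 500 bp gave a width difference of -400 bp. Leaving out a knockout library gave absent shares of 86.4% to 92.8% as deposited and 70.6% to 77.1% at equal length, gene-end differences of -9.09 to -2.41 and -18.6 to -9.74 points, and width differences of -120 to -100 and -290 to -240 bp. Genes with a knockout gene-end peak averaged 1660.5, from 858 (without KO2) to 2463 (without KO1), and control genes numbered 2241 at equal length. The causes were not tested. Depth is unknown, and a weak site missing from a knockout list cannot be told apart from one below that library's detection limit. No paired analysis was possible because there was only 1 control library and no test was made.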

Other observations

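Some chromosomes held different shares of the 3 lists, while others, such as chromosome 10 with 6.16% of KO1, 6.15% of KO2 and 6.13% of control peaks, did not. Chromosome length, gene number and DNA copy number were not taken into account. Chromosome X held 1.94% of KO1 peaks and 1.49% of KO2 peaks, against 0.997% of control peaks, and at equal length 1.94%, 1.36% and 0.427%. Chromosome 17, which is rich in genes, held 5.35% of KO1, 5.78% of KO2 and 6.91% of control peaks, and chromosome 19 held 2.74%, 3.86% and 4.18%. Chromosome 21 held 1.09% of KO1, 0.884% of KO2 and 1.70% of control peaks.

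The CCAAT box was 1 of 9 motifs searched on both strands of the promoter windows, and several others differed between groups as well. The GC box, GGGCGG, was found in 81.1% of promoters with a KO1 peak, 81.0% with a KO2 peak and 77.5% with a control peak, against 58.5% of all promoters. The AP-1 letters TGANTCA were found in 3.98%, 4.25% and 4.39% of promoters with a KO1, KO2 and control peak, against 5.76% of all promoters. Between the 124 promoters with a peak in all 3 lists and the 2544 with a peak in control cells and in neither knockout, the GC box stood at 84.7% against 75.4%, the TEAD letters GGAATG at 17.7% against 9.39%, and the ETS letters CCGGAAG at 16.1% against 22.2%. The AP-1 element stood at 4.84% against 4.40%, the E-box CACGTG at 7.26% against 10.8%, the CRE TGACGTCA at 2.42% against 3.22%, the NRF1 motif at 1.61% against 2.32%, and the TCF/LEF letters CTTTGAT at 1.61% against 1.10%.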
